A study of Mus musculus with 8 samples.

Results

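The oligodendrocytes of wild-type mice were compared between hippocampus and cortex. Cells were taken from the deposited table of mature oligodendrocytes by genotype and by the library they came from, which left 5885 of 12581 cells. Of these, 3420 came from hippocampus and 2465 from cortex, with 2 female mice giving a library of each tissue. Mouse 1 was 1 month and 18 days old and mouse 4 was 1 month and 16 days old. The study, on a mixed CBA and C57Bl6J background, set wild-type mice, Fire+/+ and labelled WT, beside mice that lack the Fire enhancer of Csf1r, labelled KO, and so have no microglia in the brain. The hippocampi of both hemispheres made up the first sample of each animal. What is called cortex was the rest of the left hemisphere without olfactory bulb and cerebellum, so it also held deep grey matter and large white matter tracts. KO mice 3 and 6, females of the same ages as mice 1 and 4, serve here only for comparison with the wild-type difference.

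Oligodendrocytes wrap axons in myelin, a stack of lipid-rich membrane that speeds conduction and through which the cell also feeds the axon. Mature oligodendrocytes fall into transcriptional subtypes, among them a Klk6-expressing form that is best known from white matter and spinal cord and a Ptgds-rich form that is common in grey matter and grows more frequent with age. Regions of the brain share the same subtypes in different proportions, so a difference between tissues can lie in how many cells of a subtype are present or in the level within a subtype.

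The 4 libraries differed in depth, and not in the same direction in both mice. Hippocampus of mouse 1 gave 2373 cells with 23275344 UMIs, and cortex of mouse 1 gave 1342 cells with 16889292 UMIs. Hippocampus of mouse 4 gave 1047 cells with 13940995 UMIs, and cortex of mouse 4 gave 1123 cells with 12766885 UMIs. The median cell held 9377 UMIs in hippocampus and 12332.5 in cortex of mouse 1, while it held 13243 in hippocampus and 11048 in cortex of mouse 4. Depth per cell was therefore lower in hippocampus in mouse 1 and higher in mouse 4. All cell barcodes were compared between libraries, and 3 were shared among the WT libraries, all between the tissues of mouse 4. The oligodendrocyte genes Mbp, for myelin basic protein, Mog and Mag, for glycoproteins of the myelin surface, had a UMI in 100% of cells of every WT library.

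Within a mouse, hippocampus and cortex were in different batches and on different chips, as the cell table numbers them. Batches 3 and 5 held the hippocampus of mice 1 and 4, and batches 4 and 6 held their cortex. Tissue and batch therefore cannot be told apart within a mouse. The study's methods describe batch 6, that of the cortex of mouse 4, as poorer in quality than the others. The mitochondrial share of UMIs, which counts the same transcripts that are compared below, ran with tissue. Whether it reflects library quality was not tested. The median percent of mitochondrial UMIs was 4.77% in hippocampus and 5.46% in cortex of mouse 1, and 5.07% in hippocampus and 6.30% in cortex of mouse 4. KO mice sat in the same batches and showed the same order, at 4.54% and 5.36% in mouse 3 and 4.57% and 6.23% in mouse 6. Values are on the log2 scale throughout, as the mean over cells of log2 of the normalized UMI count plus 1, and each difference is hippocampus minus cortex within a mouse.

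Oligo2, Oligo3 and Oligo4 were present in both tissues. Oligo3 was the most frequent, with 4363 WT cells, followed by Oligo2 with 1107 and Oligo4 with 409. Oligo1, which was frequent in KO mice, held 6 WT cells, all from the hippocampus of mouse 4. Oligo2 made up 15.93% of cells (95% interval 14.48 to 17.46) in hippocampus and 23.4% (21.16 to 25.76) in cortex of mouse 1. In mouse 4 the order was the other way round, at 20.44% (18.03 to 23.01) in hippocampus and 17.9% (15.7 to 20.27) in cortex, with intervals that overlap. The share of Oligo4 was higher in hippocampus in both mice. It was 6.28% (5.34 to 7.33) against 2.83% (2.01 to 3.87) in mouse 1 and 11.94% (10.04 to 14.06) against 8.64% (7.06 to 10.44) in mouse 4, where the intervals overlap. The cortex library of mouse 1 had the lowest share of Oligo4 and the hippocampus library of mouse 4 the highest. With 2 mice the difference in shares was not tested.

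Over all WT oligodendrocytes, the number of genes that passed depended on the processing. Of 9193 genes tested with limma, 1 passed an adjusted p of 0.05, which is 0.0109%, and 438 had an unadjusted p under 0.05. The count came to 16 without mouse 1 and to 4 without mouse 4, and edgeR gave 21. Leaving out a WT mouse keeps 1 WT mouse, so here and below such a fit takes its spread from the KO mice. Its p-values and counts measure no spread between WT mice. The count was 110 on the log2 of the mean normalized value plus 1, 93 with 0.1 added instead, 51 in thinned cells and 28 after centring. With one prior variance it was 0 by limma, with 480 at an unadjusted p under 0.05. The median size of the difference was 0.01, and 128 genes, or 1.39%, differed by more than 0.1. Differences ran from -0.54 to 0.29. The spread of differences over genes was smaller between the tissues of a mouse than between the mice. Its SD was 0.04 in mouse 1 and 0.04 in mouse 4, while the SD of the difference between the mice was 0.09 in hippocampus and 0.08 in cortex. Hippocampus was higher in both mice in 1917 genes (20.9%) and lower in both in 2576 (28%). The libraries of the tissues did not overlap in 676 genes that were higher in hippocampus (7.35%) and in 950 that were lower (10.3%).

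**Figure D1:**
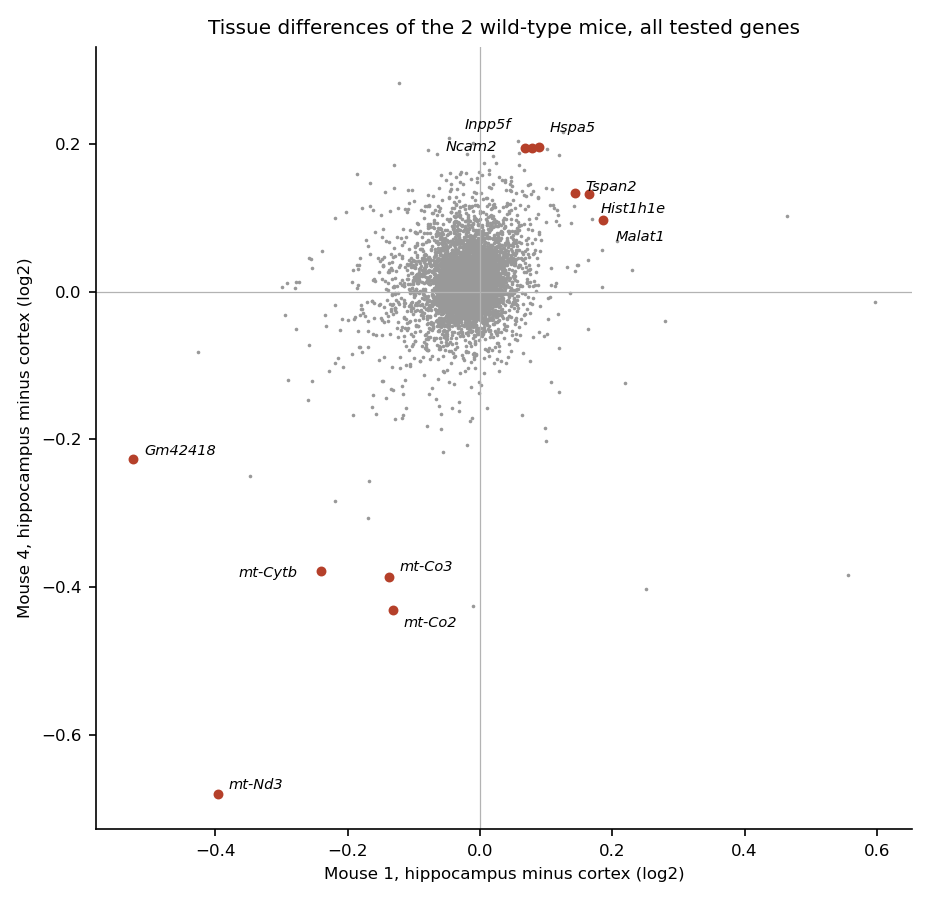
Hippocampus minus cortex difference of each tested gene (log2) in mouse 1 on the horizontal axis and mouse 4 on the vertical axis, with genes named over all cells in red. Most genes lie near 0 in both mice, and mt-Nd3 is at -0.40 and -0.68 and Gm42418 at -0.52 and -0.23.

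The gene that passed was Malat1 (ENSMUSG00000092341, chromosome 19, 5795690 to 5802672, GRCm38), a long noncoding RNA that stays in nuclear speckles and is among the most abundant transcripts of the nucleus. Its level was 9.01 in hippocampus and 8.82 in cortex of mouse 1, and 9.27 in hippocampus and 9.17 in cortex of mouse 4. It was higher in hippocampus in both mice, but the libraries overlapped, because mouse 4 had more Malat1 in both tissues. The difference was 0.14 ± 0.02 (moderated SE of limma, n = 2 mice) with a limma adjusted p of 0.0259. Like every value after ± below, this SE borrows spread from other genes and is not that of the 2 mice alone. Malat1 passed in 8 of 13 alternatives, and the adjusted p ran from 1.72e-24 to 0.9998. Its difference was 0.10 without mouse 1 and 0.19 without mouse 4, and it did not pass by edgeR, at an adjusted p of 0.581. In Oligo2 to Oligo4 of KO mice 3 and 6 the difference of Malat1 was 0.25 and 0.18.

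The lowest differences without overlap belonged to mitochondrial transcripts and to Gm42418. The mitochondrial genome encodes subunits of the respiratory chain. mt-Nd3 (ENSMUSG00000064360), a subunit of complex I, was at 2.96 in hippocampus and 3.36 in cortex of mouse 1 and at 3.30 and 3.98 in mouse 4. Both hippocampus libraries lay below both cortex libraries, and the difference of -0.54 ± 0.08 had an adjusted p of 0.105. mt-Cytb, the cytochrome b of complex III, was at 5.40 and 5.64 in mouse 1 and 5.22 and 5.60 in mouse 4, a difference of -0.31 ± 0.06 (adjusted p 0.115). The libraries did not overlap for mt-Cytb, nor for mt-Co2 and mt-Co3, subunits of complex IV. mt-Co2 was at 5.73 and 5.86 in mouse 1 and 5.83 and 6.26 in mouse 4, with a difference of -0.28 ± 0.06 (adjusted p 0.329). mt-Co3 was at 6.40 and 6.53 in mouse 1 and 6.29 and 6.68 in mouse 4, with a difference of -0.26 ± 0.05 (adjusted p 0.184). For both genes the gap was wider in mouse 4, whose cortex library was in batch 6. None of these genes passed over all cells in the limma fit, and each passed in some of 13 alternatives. mt-Nd3 and mt-Cytb each passed in 6, among them edgeR at an adjusted p of 0.000518 and 0.0384. mt-Co3 passed in 4 and mt-Co2 in 3. The lowest adjusted p over the alternatives was 3.04e-13 for mt-Nd3, 0.000468 for mt-Cytb, 0.000179 for mt-Co2 and 2.72e-06 for mt-Co3, and the highest was 0.9998 for all 4.

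The 13 mitochondrial transcripts did not all lie on one side. In both mice 9 were lower in hippocampus and 2 were higher, against the 28% and 20.9% of all genes. The median difference was -0.22, with -0.06 in mouse 1 and -0.28 in mouse 4, where the median of all genes was -0.01 and 0.01. It stayed below 0 under all 13 alternatives, from -0.28 to -0.06. mt-Nd4l, a small subunit of complex I whose coding sequence is next to that of mt-Nd3 but for a tRNA gene, went the other way. It was at 1.80 in hippocampus and 1.34 in cortex of mouse 1, and at 1.92 and 1.81 in mouse 4, a difference of 0.28 ± 0.07 (adjusted p 0.62). The mouse 1 hippocampus library overlapped with the mouse 4 cortex library. mt-Atp8, a subunit of the ATP synthase, was the other transcript that was higher in both mice, by 0.18 and 0.01. All 9 transcripts that were lower in both WT mice were also lower in both KO mice, whose medians were -0.16 and -0.41. In Oligo2 to Oligo4, mt-Nd4l was 0.47 higher in hippocampus of mouse 3, which shares its batches with mouse 1, and 0.10 lower (a difference of -0.10) in mouse 6, which shares them with mouse 4. For every mitochondrial transcript except mt-Nd6, the difference was higher or less negative in both mice 1 and 3 than in mice 4 and 6. Mice 1 and 3 share batches and also an age, as do mice 4 and 6, so batch and age cannot be told apart here, and neither was tested.

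**Figure D2:**
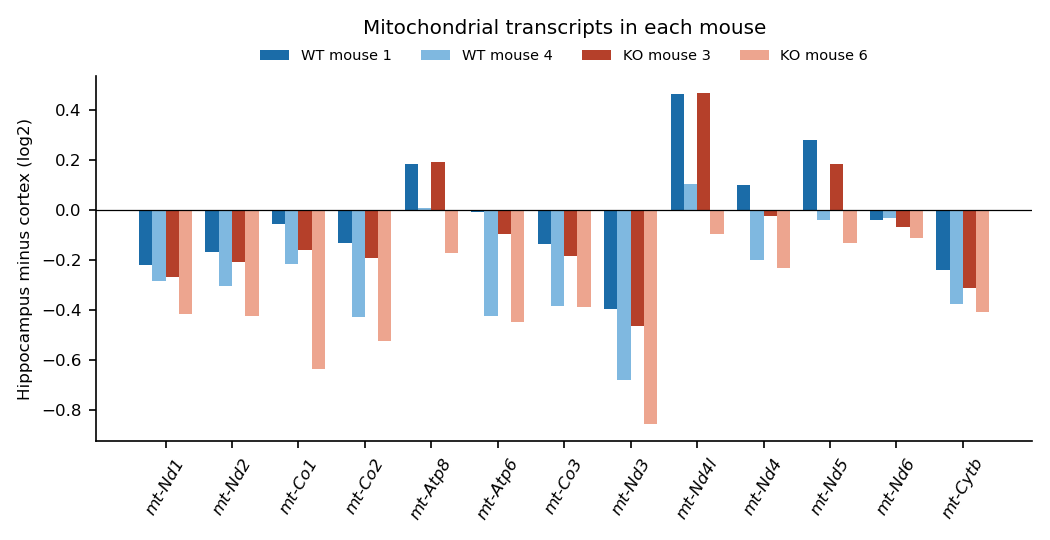
Hippocampus minus cortex difference (log2) of each mitochondrial transcript in order along the genome, in WT mice 1 and 4 (all cells) and KO mice 3 and 6 (Oligo2 to Oligo4). Bars of mt-Nd3 point down in all 4 mice, from -0.40 to -0.86, while mt-Nd4l points up in mice 1, 3 and 4.

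Gm42418 (ENSMUSG00000098178, chromosome 17, 39846958 to 39848788) is annotated as a noncoding RNA and overlaps a copy of ribosomal RNA sequence, so its UMIs largely track ribosomal RNA. It was at 5.14 in hippocampus and 5.67 in cortex of mouse 1 and at 5.43 and 5.65 in mouse 4. Both hippocampus libraries were lower, and the difference was -0.38 ± 0.07 (adjusted p 0.115). Gm42418 passed in 6 of 13 alternatives, among them edgeR at 0.0384, with adjusted p from 4.07e-06 to 0.9998. In Oligo2 to Oligo4 of the KO mice it was near 0 in mouse 3 and -0.33 in mouse 6.

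Above the cortex without overlap, the 5 highest values belonged to genes of varied roles, and none passed in the limma fit. Hist1h1e encodes a linker histone that binds DNA between nucleosomes. Its level was 0.70 in hippocampus and 0.53 in cortex of mouse 1 and 0.56 and 0.42 in mouse 4, a difference of 0.15 ± 0.03 (adjusted p 0.115) that was close in size in the mice. Hspa5, the main chaperone of the endoplasmic reticulum, was at 1.58 and 1.49 in mouse 1 and 1.60 and 1.40 in mouse 4, a difference of 0.14 ± 0.05 (adjusted p 0.91). Tspan2, a tetraspanin of the myelin membrane, was at 3.97 and 3.83 in mouse 1 and 4.08 and 3.95 in mouse 4, a difference of 0.14 ± 0.07 (adjusted p 0.995). In Oligo2 to Oligo4 of the KO mice the differences were 0.18 and 0.15 for Hist1h1e and 0.17 and 0.16 for Tspan2, while Hspa5 was near 0 in mouse 3 and 0.18 in mouse 6. Inpp5f, a phosphatase of membrane phosphoinositides, was at 1.65 and 1.57 in mouse 1 and 1.68 and 1.49 in mouse 4, a difference of 0.14 ± 0.05 (adjusted p 0.98). Ncam2, a cell adhesion molecule, was at 1.01 and 0.95 in mouse 1 and 1.20 and 1.01 in mouse 4, a difference of 0.13 ± 0.04 (adjusted p 0.845). For Inpp5f and Ncam2 the gap was wider in mouse 4 than in mouse 1. Of 13 alternatives, Hist1h1e passed in 6, among them edgeR at an adjusted p of 0.0013, Ncam2 in 2, Hspa5 in 1 and Tspan2 and Inpp5f in 0. The lowest adjusted p was 7.2e-09 for Hist1h1e, 0.0122 for Ncam2, 0.0393 for Hspa5, 0.107 for Inpp5f and 0.398 for Tspan2, and the highest 0.9998 for each.

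Apoe, Cst3 and Ptgds, chosen after the values had been seen, differed between tissues in mouse 1 and did not do so in the same direction in mouse 4. Apoe, the lipid carrier that glia secrete, was at 3.96 in hippocampus and 3.41 in cortex of mouse 1, and at 2.47 and 2.86 in mouse 4. Cst3, a secreted protease inhibitor made by microglia and also by astrocytes, was at 2.12 and 1.86 in mouse 1 and 1.63 and 2.03 in mouse 4. Apoe and Cst3 were thus higher in hippocampus of mouse 1 by 0.56 and 0.25, and lower in hippocampus of mouse 4 with -0.38 and -0.40. Ptgds, the prostaglandin D synthase that marks one mature subtype, was at 6.62 and 6.02 in mouse 1 and at 6.67 and 6.68 in mouse 4. Its difference of 0.29 ± 0.10 over the WT mice (adjusted p 0.895) therefore rested on mouse 1, with 0.60 against -0.01. In Oligo2 to Oligo4 of KO mice 3 and 6 the difference was 0.32 and 0.47 for Ptgds. It was 0.31 and 0.51 for Apoe and -0.04 and 0.19 for Cst3. Within WT Oligo3 Ptgds was higher past the limma threshold (adjusted p 1.3e-05), by 0.25 and 0.02 in mice 1 and 4. Over all cells, the adjusted p of Ptgds ran from 3.99e-09 to 0.9998 over its alternatives. Across 9193 genes, the differences of the WT mice in Oligo2 to Oligo4 correlated with r = 0.152. Between WT and KO mice of the same batches r was 0.328 for mice 1 and 3 and 0.391 for mice 4 and 6. Between mice of different batches r was 0.546 for mice 1 and 6, 0.21 for mice 4 and 3, and 0.542 for the KO mice 3 and 6. These are correlations across genes, which are not independent replicates.

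With limma on the mean log2 values more genes passed within each cluster than over all cells, and some were shared between clusters. On the log2 of the mean normalized value plus 1 the order was the reverse, with 40, 104 and 7 in Oligo2, Oligo3 and Oligo4 against 110. In Oligo2, 29 of 9267 genes passed (0.313%), with 10 higher and 19 lower in hippocampus. In Oligo3, 38 of 9117 passed (0.417%), with 8 higher and 30 lower, and in Oligo4, 4 of 9332 (0.0429%), with 2 higher and 2 lower. Oligo2 and Oligo3 shared 13 genes, which is 44.8% of the first list and 34.2% of the second. Gm42418, Malat1 and mt-Nd3 passed in all 3 clusters. In the cluster fits the estimated prior took over from each gene's own spread between the 2 mice, so these p-values rest on the spread of other genes at a similar level. This held in Oligo2, Oligo3 and Oligo4 and in the test of Oligo4 against Oligo3 below, and a gene could pass while its mice differed widely. Without mouse 1, 15 genes passed in Oligo2, 2 in Oligo3 and 0 in Oligo4, and without mouse 4, 3, 1 and 0 passed. For Oligo4, 328 and 848 genes then had an unadjusted p under 0.05. With one prior variance for all genes 0 passed in each cluster by limma, with 579, 450 and 585 at an unadjusted p under 0.05, and edgeR gave 5 in Oligo2, 115 in Oligo3 and 17 in Oligo4. Over all cells edgeR had given 21, more than in Oligo2 and Oligo4. In cells thinned to 5000 UMIs the limma count was 51 over all cells, 13 in Oligo2, 0 in Oligo3, where 568 had an unadjusted p under 0.05, and 3 in Oligo4.

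In Oligo2 the genes with the lowest adjusted p were Klk6 and S100b. Klk6 (ENSMUSG00000050063, chromosome 7) encodes a secreted serine protease and marks a subtype of mature oligodendrocytes. Its level in Oligo2 was 0.26 in hippocampus and 0.67 in cortex of mouse 1 and 0.21 and 0.47 in mouse 4. Both hippocampus libraries lay well below both cortex libraries. The difference was -0.33 ± 0.04 with an adjusted p of 3.83e-15. Klk6 passed in 10 of 12 alternatives, with adjusted p from 4.17e-58 to 0.834. Its difference was -0.26 without mouse 1 and -0.40 without mouse 4. By edgeR its log2 fold in Oligo2 was -1.83, at an adjusted p of 2.7e-07.

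Counted by cell, a Klk6 UMI was found in 18.8% of 378 Oligo2 cells (95% interval 15 to 23.1) in hippocampus and 35.7% of 314 (30.4 to 41.2) in cortex of mouse 1. In mouse 4 it was found in 15.4% of 214 cells (10.9 to 21) in hippocampus and 26.4% of 201 (20.4 to 33) in cortex. The share was lower in hippocampus in both mice, while the median depth of Oligo2 cells was lower there in mouse 1, at 10202.5 against 13700.5 UMIs, and higher in mouse 4, at 13976 against 12167. With every cell thinned to 5000 UMIs, the shares were 12.7% and 25.5% in mouse 1 and 10.3% and 20.4% in mouse 4. In Oligo3, where Klk6 is not a marker, shares were 1.08% and 3.13% in mouse 1 and 0.712% and 1.70% in mouse 4. The median Oligo3 cell held 9097.5 and 12007 UMIs in mouse 1 and 12827 and 10605 in mouse 4. Klk6 in Oligo2 was thus far above its level in Oligo3 in every library. The lower share in hippocampus was seen in Oligo3 too, on few cells.

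**Figure D3:**
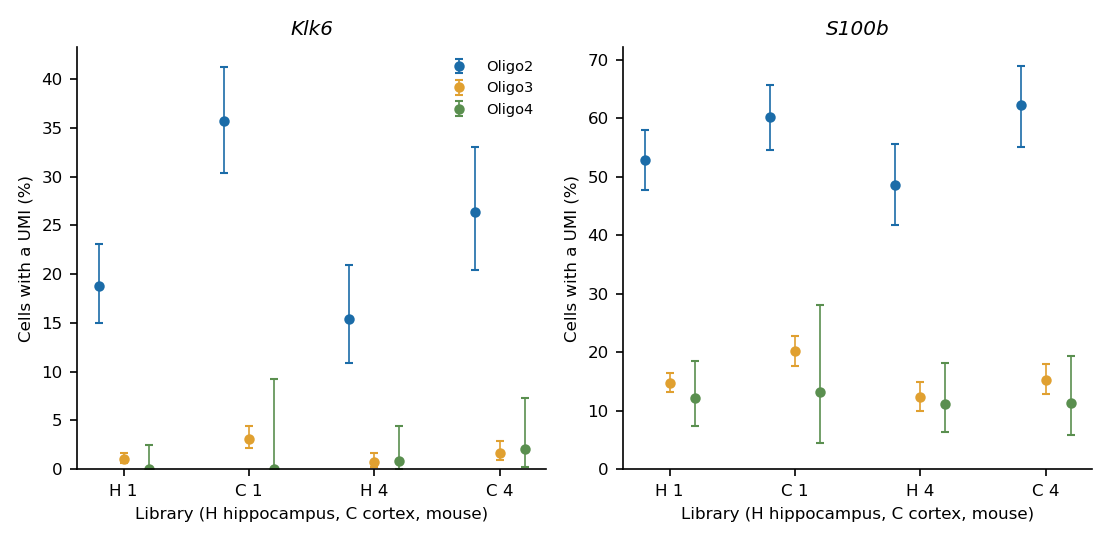
Percent of cells with a UMI of Klk6 (left) and S100b (right) in each WT library, by cluster, with exact 95% intervals. In Oligo2 the share with Klk6 is 18.8% and 15.4% in hippocampus (H) and 35.7% and 26.4% in cortex (C).

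S100b (ENSMUSG00000033208, chromosome 10) encodes a calcium-binding protein of astrocytes that oligodendrocytes also make. In Oligo2 it was at 1.00 in hippocampus and 1.27 in cortex of mouse 1 and at 0.73 and 1.33 in mouse 4. The libraries did not overlap, and the gap was larger in mouse 4. The difference was -0.43 ± 0.05 with an adjusted p of 9.63e-13. S100b passed in 9 of 12 alternatives, with adjusted p from 9.48e-32 to 0.9998, and the adjusted p was 0.00303 without mouse 1 and 0.59 without mouse 4. A UMI of S100b was found in 52.9% and 60.2% of Oligo2 cells of mouse 1 and in 48.6% and 62.2% of those of mouse 4. In Oligo3 the shares were 14.7% and 20.1% in mouse 1 and 12.3% and 15.3% in mouse 4. In thinned cells they were closer in mouse 1, at 41.8% and 44.3% in Oligo2 and 8.23% and 9.19% in Oligo3, and in mouse 4 were 34.1% and 48.8% in Oligo2 and 5.13% and 7.88% in Oligo3.

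Oligo2 cells with at least 2 Klk6 UMIs were then set apart, a division made after the values had been seen. They were 39 of 378 cells in hippocampus and 83 of 314 in cortex of mouse 1, and 19 of 214 and 34 of 201 in mouse 4. S100b was higher in these cells than in other Oligo2 cells of every WT library. In mouse 1 its level was 2.27 against 0.85 in hippocampus and 2.63 against 0.78 in cortex, and in mouse 4 it was 2.07 against 0.60 and 3.33 against 0.92. Most Oligo2 cells with an S100b UMI were outside this group. With the group left out, the S100b difference was 0.07 in mouse 1, where its direction turned, and -0.32 in mouse 4. The group is set by a gene that itself differed between the tissues, so these values do not tell whether the S100b difference depends on it.

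In Oligo2 of the KO mice the mean Klk6 difference was 0.02 and 0.00. A Klk6 UMI was found in 29.7% (95% interval 25.5 to 34.2) and 40.2% (34.4 to 46.3) of cells in hippocampus and cortex of mouse 3 and in 38.7% and 41.9% in mouse 6. With cells thinned to 5000 UMIs these shares were 24.3% and 26.4% in mouse 3 and 30.5% and 26.4% in mouse 6. Every KO hippocampus library lay above both WT hippocampus libraries in this share. The S100b difference was -0.24 and -0.49, against -0.27 and -0.59 in the WT mice. The genotype difference within Oligo2 was not tested. Over Oligo2 to Oligo4 together, the hippocampus minus cortex difference of Klk6 in WT minus that in KO mice was -0.04 (limma adjusted p 0.887), while edgeR gave -1.94 for the same difference of log2 folds with an adjusted p of 0.00464.

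The promoters of Klk6 and S100b are shown because both genes were lower in hippocampal Oligo2. RefSeq places 2 start sites for Klk6 and 1 for S100b. Each sequence runs from 250 bases before to 50 bases after a start on GRCm38.p6, and all lie on the plus strand. Capitals mark ACAAT on either strand, the core letters that SOX factors such as SOX10 bind, which occur in 31.0% of 32851 promoters of this length. The first Klk6 promoter, chr7:43824294-43824593, holds 2 copies, 1 on each strand, and the second, chr7:43825200-43825499, and that of S100b, chr10:76253586-76253885, hold 0. The S100b promoter has 2 copies of CCAAT, found in 37.4% of promoters. A match is a description of the letters and no evidence of binding.
Klk6 start 1: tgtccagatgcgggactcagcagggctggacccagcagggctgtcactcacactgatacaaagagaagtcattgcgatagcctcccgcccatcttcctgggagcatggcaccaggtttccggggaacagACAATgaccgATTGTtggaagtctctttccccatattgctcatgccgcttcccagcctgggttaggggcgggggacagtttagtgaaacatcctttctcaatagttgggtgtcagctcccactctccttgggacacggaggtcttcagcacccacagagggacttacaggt
Klk6 start 2: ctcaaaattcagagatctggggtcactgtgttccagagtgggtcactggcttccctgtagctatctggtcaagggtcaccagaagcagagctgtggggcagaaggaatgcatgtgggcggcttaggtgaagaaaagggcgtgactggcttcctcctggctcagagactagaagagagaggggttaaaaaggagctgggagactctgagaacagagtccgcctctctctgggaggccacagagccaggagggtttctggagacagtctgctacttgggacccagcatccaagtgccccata
S100b start 1: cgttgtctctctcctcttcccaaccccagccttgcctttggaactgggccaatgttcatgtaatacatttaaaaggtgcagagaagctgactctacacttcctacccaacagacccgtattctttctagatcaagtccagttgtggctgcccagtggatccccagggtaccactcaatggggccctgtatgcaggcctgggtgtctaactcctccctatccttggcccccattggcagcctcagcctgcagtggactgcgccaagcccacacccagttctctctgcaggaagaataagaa

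Other genes of Oligo2 are named by the size of their difference. mt-Nd3 was at 2.75 in hippocampus and 3.21 in cortex of mouse 1 and at 3.10 and 3.82 in mouse 4, with a difference of -0.59 ± 0.09 (adjusted p 1.97e-08). It passed without mouse 1, at 0.0308, and did not without mouse 4, at 0.59, and over its alternatives the adjusted p ran from 3.04e-14 to 0.9998. Selenop, a secreted protein that carries selenium, was at 2.02 and 2.59 in mouse 1 and 2.65 and 2.82 in mouse 4. It was lower in hippocampus in both mice with overlap between them, by -0.37 ± 0.08 (adjusted p 0.00294), and the adjusted p was 0.0197 without mouse 4 and 0.451 without mouse 1, within a range of 0.00163 to 0.9998. mt-Nd4l was higher, at 1.58 and 1.16 in mouse 1 and 1.77 and 1.66 in mouse 4 (0.26 ± 0.06, adjusted p 0.0131), and did not pass without mouse 1 (0.757) or without mouse 4 (0.59), within a range of 0.00203 to 0.9998. Htra1, a secreted serine protease that cleaves matrix proteins, was at 0.74 and 0.58 in mouse 1 and 0.96 and 0.67 in mouse 4. Acsl3, which activates long-chain fatty acids, was at 1.27 and 1.18 in mouse 1 and 1.48 and 1.13 in mouse 4. Neither Htra1 (0.22 ± 0.04, adjusted p 0.000558) nor Acsl3 (0.22 ± 0.06, adjusted p 0.0374) overlapped between the tissues, and both were higher in hippocampus of all 4 mice. Without mouse 1 both passed, at 0.0435 and 0.0269, and without mouse 4 their adjusted p was 0.59 and 0.818. Over the alternatives the adjusted p ran from 3.26e-05 to 0.9998 for Htra1 and from 0.00358 to 0.9998 for Acsl3. Of the 29 genes, 28 had the same direction in both WT mice, 21 had no overlap and 18 had the same direction in all 4 mice. The genes were picked by the WT difference, so such counts within the WT mice are no test of agreement. Over all cells 20.9% of all genes were higher and 28% lower in hippocampus of both WT mice. Without overlap, 7.35% of all genes were higher and 10.3% lower there. Counts of all genes with the same direction in all 4 mice are given below, for Oligo2 to Oligo4 together.

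**Figure D4:**
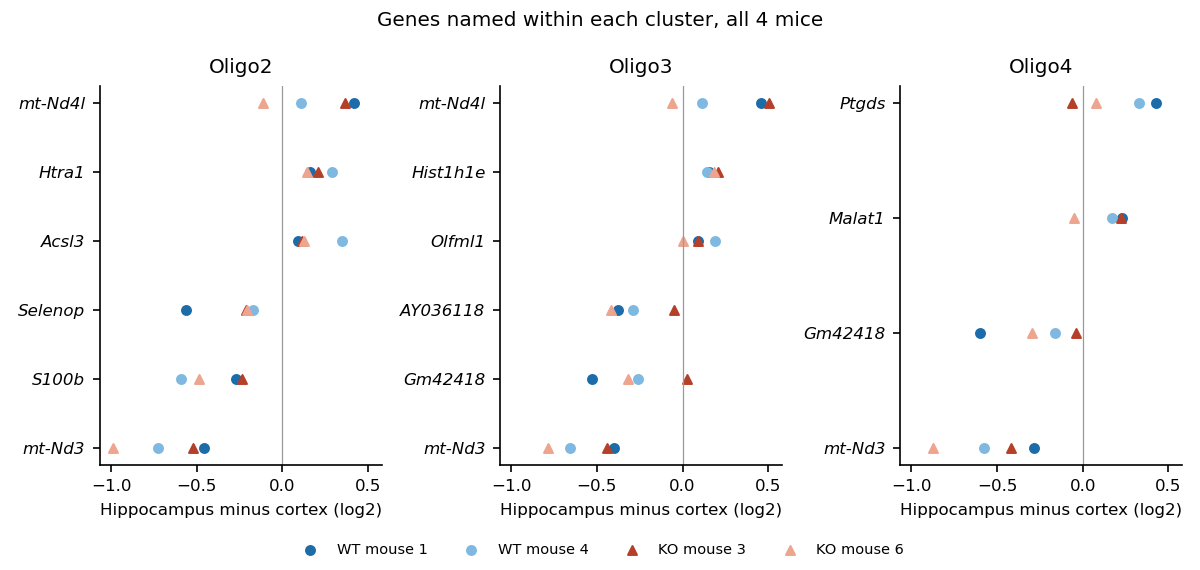
Hippocampus minus cortex difference (log2) of the genes named within Oligo2, Oligo3 and Oligo4, in WT mice (circles) and KO mice (triangles). mt-Nd3 is below 0 in every mouse and cluster, and Gm42418 in Oligo3 is -0.53 and -0.26 in the WT mice but near 0 in mouse 3.

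In Oligo3 the lowest adjusted p belonged to Malat1. The 3 lowest and 3 highest differences among the genes that passed follow. mt-Nd3 was at 3.002 in hippocampus and 3.40 in cortex of mouse 1 and at 3.38 and 4.04 in mouse 4, with a difference of -0.53 ± 0.08 (adjusted p 8.43e-08). Gm42418 was at 5.17 and 5.70 in mouse 1 and at 5.43 and 5.69 in mouse 4, a difference of -0.39 ± 0.05 (adjusted p 7.05e-10). AY036118, a noncoding transcript that also overlaps ribosomal RNA sequence, was at 0.93 and 1.31 in mouse 1 and at 2.26 and 2.55 in mouse 4. It was lower in hippocampus in both mice by a like amount (-0.33 ± 0.06, adjusted p 2.1e-05), although its level differed more between the mice than between tissues. mt-Nd4l was higher, at 1.85 and 1.39 in mouse 1 and 1.98 and 1.86 in mouse 4 (0.29 ± 0.06, adjusted p 0.00103). Hist1h1e was at 0.70 and 0.54 in mouse 1 and at 0.57 and 0.42 in mouse 4 (0.15 ± 0.03, adjusted p 0.000978). Olfml1, a secreted olfactomedin-like protein, was at 1.06 and 0.96 in mouse 1 and 0.67 and 0.48 in mouse 4 (0.14 ± 0.04, adjusted p 0.0321). For Hist1h1e the hippocampus libraries lay above the cortex libraries, while for Olfml1 mouse 1 lay above mouse 4 in both tissues. None of these 6 genes passed with either mouse left out, when their adjusted p was between 0.169 and 0.951. Over all alternatives it ran from 1.63e-17, for mt-Nd3, to 0.9998. Of the 38 genes, 37 had the same direction in both WT mice, 24 had no overlap and 22 had the same direction in all 4 mice. As in Oligo2, these genes were picked by the WT difference, so the counts within the WT mice are no test of agreement. Over all cells 7.35% of all genes were higher and 10.3% lower in hippocampus without overlap.

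Of the 13 mitochondrial transcripts, 6 passed in Oligo2 and 6 in Oligo3, 1 higher and 5 lower in each, and 1 passed in Oligo4, lower. Of all genes 0.313%, 0.417% and 0.0429% passed in these clusters. The higher one was mt-Nd4l. In thinned cells 4 were lower past the threshold in Oligo2 and 0 passed in Oligo3 by limma, while edgeR on all UMIs gave 0 higher and 1 lower in Oligo2, 1 higher and 5 lower in Oligo3 and 0 higher and 3 lower in Oligo4.

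Of 10 tested microglia markers 2 passed in Oligo3, both lower in hippocampus, against 0.417% of all genes. Of 12 astrocyte markers 1 passed there as higher, Gfap, and 1 as lower, Atp1b2, both named after their values were seen. Cx3cr1, the fractalkine receptor of microglia, was at 0.03 in hippocampus and 0.04 in cortex of mouse 1 and at 0.04 and 0.10 in mouse 4 (-0.04 ± 0.01, adjusted p 0.00154). C1qb, a complement chain made by microglia, was at 0.08 and 0.05 in mouse 1 and at 0.06 and 0.18 in mouse 4 (-0.04 ± 0.01, adjusted p 0.0127). The cortex library of mouse 4 was the highest for both genes, and C1qb was higher in hippocampus of mouse 1. Without mouse 4 the difference of C1qb was 0.03 and neither gene passed, and without mouse 1 only C1qb passed, at an adjusted p of 0.0056, within a range of 0.000983 to 0.9998. Over all cells, C1qb passed without mouse 1, at 0.000301, within a range of 0.000301 to 0.9998. A UMI of C1qb was found in 8.68% of cells in hippocampus and 6.93% in cortex of mouse 1, and in 8.88% and 20.6% in mouse 4.

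RNA of other cell types was counted with marker lists over all cells of each library. The 14 microglia markers made up 5.86 UMIs per 10000 in hippocampus and 4.68 in cortex of mouse 1, and 3.85 and 6.03 in mouse 4. Most of these, 80.7%, were of Cst3, and no marker was at 0. Csf1r, the receptor that microglia depend on, was found in 5.31% and 5.81% of cells of mouse 1 and in 5.83% and 10.2% of mouse 4, and in at most 0.155% of cells of any KO library. Another list also holds 5 of the 14 markers, and 10 passed the filter on low genes. The 12 astrocyte markers summed to 5.81 and 5.79 per 10000 in mouse 1 and to 4.48 and 5.45 in mouse 4, with S100a1 giving 31.4% and none at 0. All 12 passed the filter and 4 are in another list. In their mean log2 levels 2 were higher and 6 lower in hippocampus of both mice, against 20.9% and 28% of all genes. The median was below 0 under all 13 alternatives, but it was -0.0006 in mouse 1 and -0.06 in mouse 4. The median of all genes was -0.01 and 0.01 there. In KO mice 3 and 6 the astrocyte median was -0.03 and 0.02. The 5 erythrocyte markers, of which 2 passed the filter and Hbb-bs gave 53.3%, summed to 9.95 and 1.98 in mouse 1 and to 0.318 and 2.25 in mouse 4, while the mean log2 level of both tested genes was higher in hippocampus of each mouse. The part of such RNA in the differences of Cx3cr1, C1qb, Cst3, Apoe, S100b and Slc1a3 was not tested.

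Markers of neurons were scarce. The 13 pan-neuronal markers summed to 1.28 UMIs per 10000 in hippocampus and 0.43 in cortex of mouse 1 and to 0.643 and 0.479 in mouse 4, with Meg3 the most abundant at 23.1%, none at 0, 3 past the filter and 1 in another list. Camk2a, a kinase of excitatory neurons, was at 0.09 and 0.07 in mouse 1 and 0.10 and 0.06 in mouse 4, and was higher in hippocampus in both (adjusted p 0.577). In Oligo3 it was higher past the threshold, without overlap and in all 4 mice. The 16 markers of hippocampal neurons, of which 15 were in the file, summed to 6.33 and 6.80 in mouse 1 and 8.14 and 7.62 in mouse 4. Zbtb20, a transcription factor that oligodendrocytes also express, gave 63% of that sum, Spink8 was at 0, 3 passed the filter and 0 are in another list. The 14 markers of striatal and thalamic neurons, with Tcf7l2 giving 46.3%, 3 past the filter and 1 in another list, summed to 0.782 and 0.746 in mouse 1 and 0.717 and 0.835 in mouse 4. The 12 of endothelial and mural cells, with Bsg giving 91.2%, 11 in the file, 1 past the filter and 0 in another list, summed to 2.46 and 2.72 in mouse 1 and 1.78 and 2.08 in mouse 4. The 12 markers of choroid plexus and ependyma, with Foxj1 giving 69%, 11 in the file, 2 past the filter and 1 in another list, summed to 0.213 and 0.313 in mouse 1 and 0.374 and 0.327 in mouse 4, with Ccdc153 and Tmem212 at 0. The 8 markers of oligodendrocyte progenitors, with Ptprz1 giving 43.2%, 2 past the filter and 2 in another list, summed to 0.443 and 0.275 in mouse 1 and 0.336 and 0.404 in mouse 4. Of these sums only the pan-neuronal one was higher in hippocampus of both mice, while the median difference of its 3 tested genes was 0.02 in mouse 1 and -0.01 in mouse 4. The part of this RNA in the result was not tested.

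In Oligo4 the genes that passed were Ptgds, Malat1, mt-Nd3 and Gm42418. Ptgds (ENSMUSG00000015090, chromosome 2) was at 7.01 in hippocampus and 6.58 in cortex of mouse 1 and at 7.23 and 6.90 in mouse 4. Both hippocampus libraries were above both cortex libraries, and the difference was 0.38 ± 0.06 (adjusted p 2.88e-05). Ptgds passed in 7 of 12 alternatives, with adjusted p from 6.52e-11 to 0.9992. In the KO mice the Oligo4 difference of Ptgds was -0.06 and 0.08. Malat1 was at 9.41 and 9.18 in mouse 1 and at 9.29 and 9.12 in mouse 4 (0.20 ± 0.04, adjusted p 0.000137). mt-Nd3 was at 2.96 and 3.24 in mouse 1 and at 3.25 and 3.83 in mouse 4 (-0.43 ± 0.10, adjusted p 0.0185), and Gm42418 was at 4.93 and 5.53 in mouse 1 and at 5.36 and 5.52 in mouse 4 (-0.38 ± 0.08, adjusted p 0.0185). All 4 genes had the same direction in both mice, 3 had no overlap, and none passed with either mouse left out, when their adjusted p was between 0.287 and 0.996. These genes too were picked by the WT difference. Over all cells 7.35% of all genes were higher and 10.3% lower in hippocampus without overlap. The cortex of mouse 1 gave 38 Oligo4 cells, the fewest of the 4 libraries.

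Whether the tissue difference itself differed between clusters was tested within the WT mice. Between Oligo2 and Oligo3, 4 of 9437 genes passed (0.0424%), with 31 without mouse 1, 6 without mouse 4 and 22 by edgeR. S100b differed by -0.40 ± 0.05 (adjusted p 8.17e-05), with -0.27 and -0.59 in Oligo2 of mice 1 and 4 and -0.02 and -0.04 in Oligo3. Klk6 differed by -0.32 ± 0.03 (adjusted p 3.44e-06), with -0.40 and -0.26 in Oligo2 and -0.02 and -0.01 in Oligo3. Without mouse 1 the values were -0.56 for S100b and -0.25 for Klk6, and without mouse 4 they were -0.25 and -0.39. Both genes are low in Oligo3, where a difference of the same size could not occur. On the ratio scale of edgeR, S100b differed by -0.72 (adjusted p 1.59e-06) and Klk6 by -0.57 (adjusted p 0.903), so Klk6 did not pass. Over the alternatives the adjusted p ran from 7.95e-56 to 0.81 for S100b and from 6.75e-70 to 0.903 for Klk6. Dynll1, a light chain of the dynein motor, differed by -0.25 ± 0.05 (adjusted p 0.0459), with -0.20 and -0.31 in Oligo2 and -0.04 and 0.03 in Oligo3. Scd1, a desaturase that makes monounsaturated fatty acids for myelin lipids, differed by 0.27 ± 0.04 (adjusted p 0.0062). Its difference was -0.12 and 0.25 in Oligo2 and -0.32 and -0.08 in Oligo3, so it was lower in hippocampal Oligo3 in both mice and mixed in Oligo2. Dynll1 and Scd1 did not pass without mouse 4, with adjusted p of 1 and 0.475, and over the alternatives it ran from 0.000143 to 1 for Dynll1 and from 3.32e-07 to 0.81 for Scd1.

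Between Oligo4 and Oligo3, 4 of 9512 genes passed (0.0421%), with 3 without mouse 1 and 15 without mouse 4. Ptgds differed by 0.24 ± 0.03 (adjusted p 9.92e-17), with 0.43 and 0.33 in Oligo4 and 0.25 and 0.02 in Oligo3. Malat1 differed by 0.08 ± 0.01 (adjusted p 8.76e-15), with 0.23 and 0.17 in Oligo4 and 0.16 and 0.07 in Oligo3. Ptgds and Malat1 are among the most abundant transcripts of these cells. Without mouse 1 they differed by 0.31 and 0.10, and without mouse 4 by 0.18 and 0.07. Dancr, a noncoding RNA, differed by -0.11 ± 0.03 (adjusted p 0.027), with -0.13 and -0.10 in Oligo4 and -0.01 and 0.00 in Oligo3, and did not pass without mouse 1 or without mouse 4 (adjusted p 0.82 and 0.098, within a range of 0.0237 to 0.998). Its level in Oligo3 was 0.04 to 0.06, where a difference of that size could not occur. On the ratio scale of edgeR Dancr differed by -1.83, at an adjusted p of 0.991. By edgeR 0 genes passed in this test, with 380 at an unadjusted p under 0.05, against the 4 by limma. The edgeR difference was 0.20 for Ptgds and 0.09 for Malat1, at an adjusted p of 0.991 each. Of 12 alternatives, Ptgds passed in 7 and Malat1 in 6.

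Gene lists for the roles of the cell were then read against all genes. Over all cells, 333 of 527 listed genes were tested. By limma 0 passed, with 43 at an unadjusted p under 0.05, against 438 of all 9193 genes. By edgeR 4 passed, against 21 of all genes, and these were Klk6, S1pr1, Abca8a and Galc, the last 2 named after their values were seen. Abca8a is a lipid transporter and Galc the lysosomal enzyme that breaks down the myelin lipid galactosylceramide.

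Of 15 core myelin genes, 7 were higher in hippocampus in both mice and 2 lower, against 20.9% and 28% of all genes. Over all cells their median of 0.04 was above 0 under all 13 alternatives. Within clusters the median was 0.05 in Oligo2, 0.03 in Oligo3 and -0.09 in Oligo4. Beside Tspan2, Opalin, a glycoprotein of the paranodal loops, was at 3.67 in hippocampus and 3.46 in cortex of mouse 1 and at 3.21 and 3.14 in mouse 4. Plekhb1, a membrane protein with a pleckstrin domain, was at 2.02 and 2.29 in mouse 1 and at 2.23 and 2.21 in mouse 4, and Mobp, a basic protein of compact myelin, at 4.19 and 4.36 and at 4.29 and 4.33. Mobp was thus lower and Opalin higher in hippocampus in both mice, and Plekhb1 was mixed. In the KO mice the median of the same list was -0.08 and -0.04. Of 10 tested genes of newly formed oligodendrocytes, 2 were higher and 5 lower in both mice. Among them was Enpp6, an enzyme of newly differentiated cells, which was at 0.51 and 0.79 in mouse 1 and at 0.67 and 0.66 in mouse 4. Over the alternatives the adjusted p of Enpp6 ran from 4.31e-05 to 0.9998.

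Markers of the mature subtypes were mixed. Of 6 tested genes of the MOL2 type, 1 was higher and 3 lower in both mice, and Klk6 over all cells was at 0.05 in hippocampus and 0.17 in cortex of mouse 1 and at 0.05 and 0.10 in mouse 4 (adjusted p 0.105). Of 12 genes of the MOL5 and MOL6 type, 4 were higher and 2 lower. Qdpr, which recycles a cofactor of aromatic amino acid enzymes, was at 4.65 and 4.46 in mouse 1 and at 4.30 and 4.24 in mouse 4. Il33, a nuclear alarmin of the interleukin-1 family, was at 2.08 and 1.96 in mouse 1 and at 1.12 and 1.00 in mouse 4. Both genes were higher in hippocampus in each mouse, and Il33 was far lower in mouse 4 in both tissues. The median of the MOL5 and MOL6 list was -0.03 in mouse 1 and 0.05 in mouse 4, so its sign turned without mouse 4.

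Of 14 factors of the oligodendrocyte lineage, 2 were higher and 7 lower in both mice, and their median, -0.01, turned sign without mouse 1. Sox8, a partner of SOX10 in terminal differentiation, was at 0.81 in hippocampus and 0.90 in cortex of mouse 1 and at 0.74 and 0.84 in mouse 4, a difference of -0.09 in each mouse. Zfp536, a zinc finger repressor of differentiation, was at 1.22 and 1.35 in mouse 1 and at 1.44 and 1.46 in mouse 4. Of 36 regional patterning factors, 29 were in the file and 8 passed the filter, of which 1 was higher and 6 lower in both mice. Foxp1 was at 0.37 and 0.45 in mouse 1 and 0.44 and 0.49 in mouse 4. Meis1 was at 0.13 and 0.15 in mouse 1 and 0.19 and 0.25 in mouse 4, and Pbx3 at 0.15 and 0.18 and at 0.12 and 0.15. Foxp1, a factor of forebrain neurons, and Meis1 and Pbx3, partners of HOX factors, were lower in hippocampus in both WT mice, each with an adjusted p of 0.98. The list's median was -0.01 and below 0 under all 13 alternatives.

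Lipid genes did not share a direction between the mice. Of 20 tested genes of cholesterol synthesis, 0 were higher and 3 lower in both mice, with a median of -0.04 in mouse 1 and 0.04 in mouse 4 whose sign turned in thinned cells, with equal cluster weights and without mouse 1. Hmgcs1, an early enzyme of the pathway, was at 1.51 in hippocampus and 1.64 in cortex of mouse 1 and at 2.08 and 1.80 in mouse 4. Cyp51 was at 0.86 and 0.88 in mouse 1 and at 1.12 and 0.93 in mouse 4, and Msmo1 at 0.96 and 1.18 and at 1.28 and 1.30, both sterol demethylating enzymes. Hmgcs1 and Cyp51 thus lay on opposite sides in the mice. Of 20 genes of fatty acid and galactolipid synthesis, 4 were higher and 5 lower in both mice, with a median that turned sign without mouse 1. Scd1 was lower past the threshold in Oligo3. Scd2, a brain desaturase, was at 4.62 and 4.87 in mouse 1 and at 5.18 and 5.14 in mouse 4, and Scd1 at 0.82 and 1.12 and at 1.29 and 1.28. Of 15 genes of cholesterol transport, 4 were higher and 2 lower, and Npc1, which exports cholesterol from lysosomes, was at 1.18 and 1.18 in mouse 1 and at 1.37 and 1.21 in mouse 4.

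**Figure D5:**
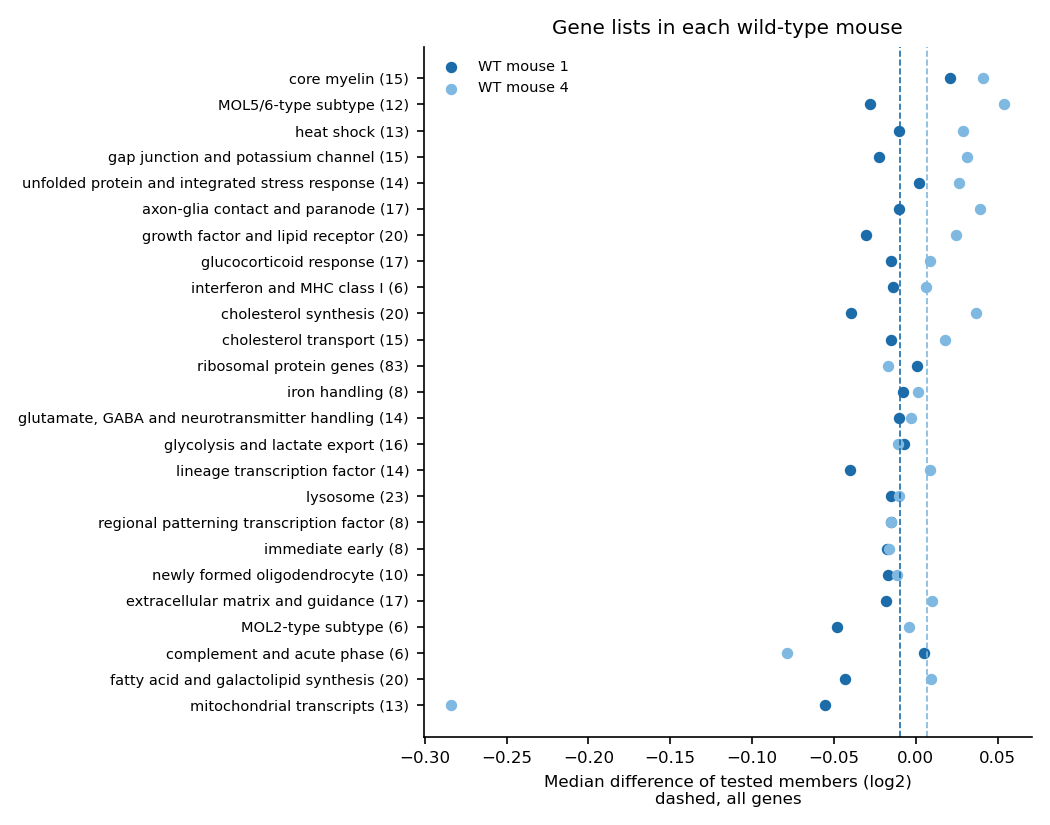
Median hippocampus minus cortex difference (log2) of each gene list in WT mouse 1 and mouse 4, with the number of tested members in brackets and dashed lines at the median of all genes. Mitochondrial transcripts, at -0.06 and -0.28, stand apart in mouse 4 only, and core myelin lies above 0 in both mice at 0.02 and 0.04.

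Stress genes included chaperones that were higher in hippocampus as values. Of 14 tested genes of the unfolded protein and integrated stress response, 4 were higher in both mice and 0 lower, and the median was above 0 under all 13 alternatives. Beside Hspa5, Hsp90b1, another chaperone of the endoplasmic reticulum, was at 2.24 in hippocampus and 2.13 in cortex of mouse 1 and at 2.22 and 2.10 in mouse 4. Its libraries did not overlap, and its adjusted p was 0.995. Of 13 heat shock genes, 5 were higher and 2 lower, and Hsp90ab1 was at 4.39 and 4.35 in mouse 1 and at 4.26 and 4.14 in mouse 4. Of 8 tested immediate early genes, which respond to activity and to tissue dissociation, 1 was higher and 5 lower in both mice. Jund, an AP-1 factor, was at 2.60 and 2.70 in mouse 1 and at 2.34 and 2.44 in mouse 4. In Oligo2 to Oligo4 of the KO mice Jund differed by 0.73 in mouse 3 and by -0.25 in mouse 6. Of 17 genes that respond to glucocorticoids, 2 were higher and 5 lower. Sgk1, a kinase that stress hormones induce in oligodendrocytes, was at 0.53 and 0.48 in mouse 1 and at 0.78 and 0.64 in mouse 4, and Cdkn1a, a cell cycle inhibitor, at 0.26 and 0.29 and at 0.50 and 0.58. For Sgk1 and Cdkn1a the mice stood farther apart than the tissues.

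Immune lists had few expressed members. Of 6 tested genes of interferon response and antigen presentation, 1 was higher and 2 lower in both mice, and Ifi27 was at 0.49 in hippocampus and 0.60 in cortex of mouse 1 and at 0.59 and 0.66 in mouse 4. Of 6 complement and acute phase genes, 0 were higher and 0 lower in both mice. Clu, a secreted chaperone, was at 0.38 and 0.37 in mouse 1 and at 0.32 and 0.44 in mouse 4. Of 23 lysosomal genes, 5 were higher and 12 lower. Ctsd, an aspartyl protease of the lysosome, was higher, at 1.13 and 1.02 in mouse 1 and 1.14 and 1.00 in mouse 4, and Tpp1, a lysosomal peptidase, lower, at 0.48 and 0.56 and at 0.52 and 0.60. The libraries of Ctsd did not overlap, and its adjusted p was 0.753, while it passed in 2 of 13 alternatives (0.0299 to 0.9998).

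Genes of contact with axons and of transport showed members on each side. Of 17 genes of axon contact and the paranode, 4 were higher and 2 lower in both mice, and Ncam1 and Cadm1, adhesion molecules, were lower. Ncam1 was at 1.89 in hippocampus and 1.98 in cortex of mouse 1 and at 1.95 and 1.98 in mouse 4, and Cadm1 at 0.61 and 0.68 and at 0.42 and 0.48. Of 15 genes of gap junctions and potassium handling, 4 were higher and 4 lower. Gjb1, a connexin that joins the layers of myelin, was at 1.73 and 1.64 in mouse 1 and at 1.42 and 1.31 in mouse 4, higher in hippocampus of both. Hcn2, a channel opened by hyperpolarization, was lower, at 1.11 and 1.40 in mouse 1 and at 1.02 and 1.05 in mouse 4.

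Metabolic lists are read beside the 28% of all genes that were lower in hippocampus of both mice. Of 16 genes of glycolysis and lactate export, 2 were higher and 6 lower in both mice, and Ldhb, a lactate dehydrogenase subunit, was at 0.67 and 0.69 in mouse 1 and at 0.99 and 1.08 in mouse 4. Of 14 genes that handle glutamate, GABA and other transmitters, 2 were higher and 5 lower. Glul, glutamine synthetase, was at 3.64 in hippocampus and 3.92 in cortex of mouse 1 and at 3.10 and 3.22 in mouse 4. It was lower in hippocampus in Oligo2 to Oligo4 of the KO mice too, with -0.72 and -0.53. The glutamate transporter Slc1a3 was at 0.42 and 0.52 in mouse 1 and at 0.58 and 0.67 in mouse 4, and Slc1a2 at 0.63 and 0.63 and at 0.58 and 0.70. Both transporters are also astrocyte markers. Of 8 tested iron genes, 2 were higher and 3 lower, and Tfrc, the transferrin receptor, was at 0.28 and 0.26 in mouse 1 and at 0.46 and 0.34 in mouse 4.

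Receptors and matrix genes were mixed. Of 20 growth factor and lipid receptors, 4 were higher and 4 lower in both mice, and S1pr1, a sphingosine phosphate receptor, was at 0.05 in hippocampus and 0.09 in cortex of mouse 1 and at 0.04 and 0.11 in mouse 4. S1pr1 had no overlap over all cells (adjusted p 0.105) and was lower past the threshold in Oligo2 and in Oligo3. Of 17 genes of extracellular matrix and guidance, 3 were higher and 4 lower, and Sema6d, a membrane semaphorin, was at 1.05 and 0.98 in mouse 1 and at 1.38 and 1.26 in mouse 4. The 83 tested genes of ribosomal proteins had a median of -0.01, with 14 higher and 29 lower in both mice, and that median turned above 0 by edgeR and without mouse 4.

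In KO mice the tissues were compared in the same way over Oligo2 to Oligo4, since Oligo1 was nearly missing from WT mice. Over all KO cells, the median cell held fewer UMIs in hippocampus, at 9579.5 against 13725.5 in mouse 3 and 10794 against 13250.5 in mouse 6. Of 9276 genes, 569 passed (6.13%), with 144 higher and 425 lower in hippocampus. The count was 21 without mouse 3 and 136 without mouse 6. With one prior variance it was 0 by limma, with 1685 at an unadjusted p under 0.05, and edgeR gave 148. The balance of higher and lower calls moved too, at 70 and 78 by edgeR and 96 and 61 in thinned cells. Counts past a threshold in one genotype and not in the other do not show a difference, so the difference was tested itself. Of 9232 genes, 0 passed (0%) for the interaction of tissue with genotype by limma, with 477 at an unadjusted p under 0.05, and edgeR gave 1, Klk6. Without mouse 6 the count was 64, without mouse 1 it was 15, without mouse 3 it was 3 and without mouse 4 it was 0, with 369 at an unadjusted p under 0.05. With Oligo1 cells included 2 genes passed, Serpina3n at -0.34 and Slc9a3r2 at -0.28, named after their values were seen. Oligo1 made up 30.85% of cells in hippocampus and 13.69% in cortex of mouse 3, and 23.16% and 10.84% in mouse 6. The paper names Serpina3n among the genes high in Oligo1. The part of the Oligo1 share in these 2 values was not tested. Serpina3n encodes a secreted protease inhibitor of reactive glia and Slc9a3r2 a scaffold protein of membranes. Of the 9193 genes tested over all WT cells, hippocampus was higher in all 4 mice in 611 genes and lower in all 4 in 1685 genes. Depth per cell was lower in hippocampus of mice 1, 3 and 6, and its part in this balance was not tested.

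The comparison rests on 2 mice, and each WT fit has 1 residual degree of freedom. Tissue and batch cannot be told apart, and the count of genes past the threshold moved with the scale, the prior and the mouse left out.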

How the data were processed

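Single cells from hippocampus and cortex of 2 WT and 2 KO mice had been sequenced by the 10x Genomics 3′ method. The study set the oligodendrocyte clusters apart afterwards, by their marker genes. The submitters' processing notes name Cell Ranger 5.0.0 and the mm10 build. The values the authors deposited are on the log2 scale, after scaling each UMI count by a scran size factor and adding 1. Per the file headers, the deposited cell table gives the total UMI count, the genes with a UMI, the percent of mitochondrial UMIs and the size factor, a score for depth, of each cell. The authors assigned cells to Oligo1 to Oligo4 after batch correction, and the deposited log2 values themselves are not batch corrected. The authors gated doublets out by scatter when sorting cells, before the cells entered droplets. No doublet caller was run here, so droplets that held 2 cells were not looked for.

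UMIs were recovered from the log2 values and size factors, and all 42420937 values above 0 came within 0.001 of a whole number. The recovered total equalled the deposited total in 11264 of 12581 cells, with a largest gap of 147 UMIs. The mean log2 value per library was fitted with limma 3.58.1 in R 4.3.3, using a variance prior that follows the level, and mouse as the block. Tests were two-sided with Benjamini-Hochberg adjustment over all genes tested, at a threshold of 0.05. A gene was tested when the mean, over the libraries of a fit, of its share of UMI-positive cells reached 5%. Hippocampus and cortex were paired because both libraries with one mouse number came from the same animal. Across 9193 genes, the deviations of the 2 mice from their mean correlated between the tissues with r = 0.843, and genes are not independent replicates. An exact permutation test over 2 pairs cannot give a p under 0.5. Shares of cells carry exact Clopper-Pearson 95% intervals, which cover counting error only. Alternatives were a fit with no block, filters at 10% of cells and at 0, logs taken after averaging the normalized values, with 1 or 0.1 added, and one prior variance. Others were the spread of all mice, centring on the median gene, edgeR 4.0.16 on UMI sums, cells thinned to 5000 UMIs, equal weights for the clusters, Oligo1 added, and leaving out each mouse. The code was first tested on simulated data. Tables were made in Python 3.11.15 with pandas 2.3.3 and scipy 1.17.1.

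Genes were named by a rule. Over all cells it takes the 12 highest and 12 lowest differences among genes past the threshold without overlap between the tissues, or the 5 highest and 5 lowest without overlap, as values only, where none passes. In each cluster and interaction it takes the 3 highest and 3 lowest past the threshold, and for each of 32 gene lists up to 4 members. The members and lists were chosen with earlier results of these data known. Some genes that the rule or a list would name are not reported here, while all counts include them.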

Additional observations from a re-analysis of the deposited data

Results flagged for a closer look

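The tissue difference was itself tested for a difference between clusters, and 8 results passed, 7 of which are given here. Between Oligo2 and Oligo3 the hippocampus minus cortex difference of S100b differed by -0.40 log2, that of Klk6 by -0.32 and that of Dynll1 by -0.25, all lower in Oligo2. Klk6 and S100b are low in Oligo3, where a log2 difference of that size could not occur. By edgeR S100b differed by -0.72 and passed (adjusted p 1.59e-06), while Klk6 differed by -0.57 and did not (0.903). That of Scd1 differed by 0.27, higher in Oligo2. Between Oligo4 and Oligo3 the difference of Dancr differed by -0.11, lower in Oligo4. Dancr is also too low in Oligo3 for a difference of that size. By edgeR it differed by -1.83 and did not pass (0.991). The difference of Malat1 differed by 0.085 and that of Ptgds by 0.24, both higher in Oligo4. Neither passed by edgeR, where they differed by 0.089 and 0.20 with an adjusted p of 0.991 each. Groups of 2 libraries are too small for a test of single outlying samples.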

How the results depend on the processing

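With no mouse block, that is, without pairing, no gene passed over all WT cells, in Oligo2, Oligo3, Oligo4 or in KO mice, where the paired counts were 1, 29, 38, 4 and 569, and 2 passed in each cluster interaction, where there had been 4. With one prior variance the count was 0 in all of these fits. With no filter on low genes the counts were 0 over all WT cells, 88 in Oligo2, 108 in Oligo3, 275 in KO mice and 0 in each cluster interaction. The filter at 10% of cells gave 10 over all WT cells.

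On the log2 of the mean normalized value plus 1, 110 genes passed over all WT cells, 104 in Oligo3, 7 in Oligo4, 34 in KO mice, 28 between Oligo2 and Oligo3 and 0 between Oligo4 and Oligo3. With 0.1 added instead, the counts were 93, 44 in Oligo2, 89 in Oligo3, 0 in Oligo4, 0 in KO mice, 21 and 0. The spread pooled over all mice gave 2 over all WT cells, 4 in Oligo2, 14 in Oligo3, 2 in Oligo4 and 178 in KO mice. Centring gave 28 over all WT cells, 68 in Oligo3 and 150 in KO mice, where 59 were higher and 91 lower in hippocampus, against 144 and 425 without it. By edgeR the counts were 21, 5 in Oligo2, 115 in Oligo3, 17 in Oligo4, 148 in KO mice with 70 higher and 78 lower, 1 for the genotype interaction, 22 between Oligo2 and Oligo3 and 0 between Oligo4 and Oligo3. Thinned to 5000 UMIs, cells gave 51 over all WT cells, 13 in Oligo2, 0 in Oligo3 and 157 in KO mice, with 96 higher and 61 lower. Equal cluster weights gave 197 in KO mice, and with Oligo1 included 2 passed in the genotype interaction.

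Leaving out each mouse gave 4 to 16 genes over all WT cells, 3 to 15 in Oligo2, 1 to 2 in Oligo3 and 0 in Oligo4. The range was 21 to 136 in KO mice, 0 to 64 for the genotype interaction, 6 to 31 between Oligo2 and Oligo3 and 3 to 15 between Oligo4 and Oligo3. A lone mouse was assumed to vary like those of the other genotype.

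Some named genes turned sign with a mouse left out. The values with each mouse left out ran from -0.27 to 0.013 for Plekhb1, -0.28 to 0.0052 for Enpp6, -0.014 to 0.60 for Ptgds, -0.020 to 0.19 for Cyp51, -0.12 to 0.28 for Hmgcs1, -0.30 to 0.0065 for Scd1, -0.26 to 0.046 for Scd2, -0.38 to 0.56 for Apoe, -0.13 to 0.0020 for Clu, -0.40 to 0.25 for Cst3 and -0.20 to 0.11 for Zbtb20. For C1qb they ran from -0.11 to 0.028 over all cells and from -0.115 to 0.0283 in Oligo3. Zbtb20 also turned to 0.0074 in thinned cells. Each of these genes differed in direction between the 2 mice or lay near 0. Why the counts depend on the scale and the prior was not tested. Each fit within the WT mice has 1 residual degree of freedom, so p-values and SEs rest mainly on spread borrowed from other genes.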
